A study of Mus musculus with 6 samples.

Results

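The small heat shock proteins of the mouse lens were followed through 9 genes: the α-crystallins Cryaa and Cryab, the related genes Hspb1, Hspb2, Hspb3, Hspb6, Hspb7 and Hspb8, and Bag3, whose product binds Hspb8. They were found on the array by the RefSeq accession of each probe out of 20659 named genes. The 9 genes had 11 probes, 2 each for Cryaa and Cryab and 1 each for the others. For 8 of them a probe was well above background on all 6 arrays. Hspb7 was not well above background on any array and was not tested.

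Small heat shock proteins share a conserved α-crystallin domain, form large oligomers and hold unfolding proteins in solution without using ATP. αA- and αB-crystallin, the products of Cryaa and Cryab, make up a large part of the soluble protein of the lens, where fibre cells lose their nuclei and organelles and must keep the proteins they were made with. Hspb1 and Hspb8 are made more widely and respond to stress, and Bag3 joins Hspb8 to the HSP70 system and to autophagy. Hspb2, Hspb3, Hspb6 and Hspb7 are known best from heart and skeletal muscle, and Hspb2 is the direct neighbour of Cryab on the chromosome.

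Lens RNA was taken from mice aged 3 months. Knock-in mice carried W151C in βB2-crystallin, a tryptophan to cysteine change at codon 151 of Crybb2 made with CRISPR/Cas9, and the control animals were wild type. Strain, zygosity and pooling of animals are not given in the labels used here. Each group had 3 single-colour arrays, the knock-in ones labelled replicates 1, 2 and 4 and the wild type ones 1, 2 and 3.

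The level of a gene below is the log2 of its processed signal relative to the 75th percentile of the array, so a level of 0 equals that percentile. The percentile itself was a signal of 167 to 201 on the knock-in arrays, 142 and 120 for the first pair of wild type arrays, and 698 for wild type array 3. By the scan times in the file headers, the knock-in arrays shared 1 scan and wild type arrays 1 and 2 another of the same day. Wild type array 3 was scanned on a different day. Arrays that share a scan time are called a slide here, though no slide identity was used. Since no scan covered both genotypes, an effect of slide and one of genotype cannot be told apart. Fits with slide as a random block, given below, do not separate them either. All 12 lens fibre cell markers on the array were well above background on every array, as were 8 of 9 lens epithelial markers. Photoreceptor markers summed to 103 times the 75th percentile on knock-in array 4, to 7.61 and 10.1 for the remaining knock-in arrays and to 3.46 to 4.11 in wild type lenses. Sums for corneal markers were 70.9 to 80.6 in knock-in and 59.6 to 87.3 in wild type lenses, for pigmented iris and ciliary markers 2.55 to 2.76 and 4.39 to 5.36, for leukocyte markers 9.42 to 18.1 and 12.9 to 41.3, and for blood and vessel markers 1.75 to 2.34 and 1.58 to 3.22. The leukocyte sum was carried by Itgam and the pigmented one by Oca2, each the largest term on every array and lower in knock-in lenses. The other tested markers of these lists went both ways. Tyrobp, C1qc, C1qa, Csf1r, Tyrp1, Dct and Tyr had higher means in knock-in lenses, and C1qb, Adgre1 and Pmel lower ones. Tyrobp, C1qc, C1qa and Dct entered the fit only through the knock-in arrays. In whole lenses, fewer cells of a type and less RNA per cell cannot be told apart.

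Knock-in lenses were compared with wild type ones to ask which of these chaperone genes differ in transcript level when βB2-crystallin carries the substitution. Hspb8 was 7.59-fold higher in knock-in lenses, the only member that rose. Hspb3 was 3.19-fold lower and Hspb2 1.70-fold lower. The other 5 genes tested, among them both α-crystallins, did not pass the test. With limma fitted to all 12785 genes and Benjamini-Hochberg adjustment at a threshold of 0.05, the members called were thus 3 of 8, where 25.9% of all genes were called. Their count is close to that background and says nothing particular about the family. The groups did not overlap for the same 3 members, against 45.9% of all genes. The series design gives 3 biological replicates per group, but the labels do not say whether each array came from a separate animal. The p-values measure the spread between these arrays, part of which may be technical. The median log2 fold change was -0.27 over the 8 members and -0.04 over all genes.

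**Figure D1:**
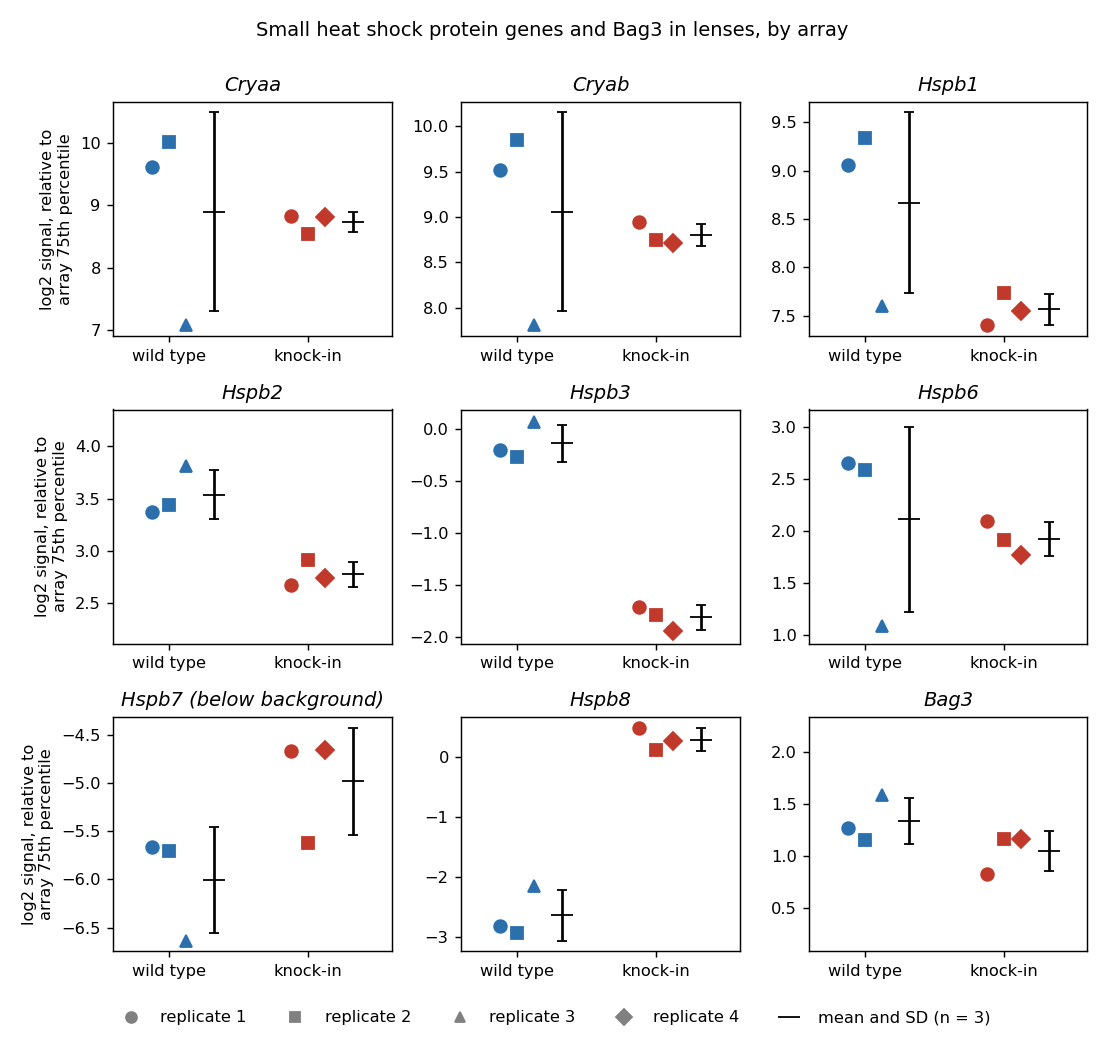
Each panel plots the log2 signal of 1 gene relative to the 75th percentile of its array (vertical axis, scale differs by panel) for the 3 wild type and 3 knock-in arrays, with the mean and SD beside the points and the marker shape giving the replicate label. Hspb8, Hspb3 and Hspb2 separate by genotype. For Cryaa, Cryab, Hspb1 and Hspb6 wild type array 3 lies far below wild type arrays 1 and 2.

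αA-crystallin is the lens-restricted member of the family. On its brighter probe Cryaa lay at 8.83, 8.54 and 8.81 in the knock-in samples 1, 2 and 4. Among the controls it lay at 9.61 and 10.01 in samples 1 and 2 and at 7.07 in sample 3. The knock-in arrays therefore lay between the wild type arrays, and the groups overlapped. The means were 8.73 ± 0.16 (SD, n = 3) and 8.90 ± 1.59 (SD, n = 3). The difference of -0.17 (SE 0.71, limma adjusted p = 0.882) had a 95% confidence interval from -1.84 to 1.51. Its sign turned to 0.57 after quantile normalization and to 0.12 with slide fitted as a random block.

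αB-crystallin is found in lens, heart, muscle and glia and is induced by stress in many cells. Cryab had log2 levels of 8.94, 8.75 and 8.71 in the knock-in samples, and of 9.52, 9.84 and 7.80 in the controls, given in the order of their replicate numbers here and further on. It showed the same order as Cryaa, with wild type array 3 lowest and the other wild type arrays highest. The means of 8.80 ± 0.12 (SD, n = 3) and 9.06 ± 1.1 (SD, n = 3) differed by -0.26 (SE 0.50, limma adjusted p = 0.739; 95% confidence interval from -1.43 to 0.92), and quantile normalization gave 0.14.

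Both α-crystallin results rested on wild type array 3. Fitted under the scan day block, which leaves wild type arrays 1 and 2 as the controls, Cryaa fell by 1.08 (limma adjusted p = 0.00529) and Cryab fell by 0.88 (limma adjusted p = 0.00694) on the log2 scale. Leaving out wild type array 3 gave the same differences (adjusted p = 0.00569 and 0.00738). Leaving out wild type array 1 or 2 instead gave 0.19 or 0.39 for Cryaa, and -0.02 or 0.14 for Cryab, none of which passed. Array 3 also had the lowest summed signal of the fibre cell markers, 1320 times the 75th percentile against 3850 and 4540 in the other controls and 1480 to 1740 in knock-in lenses; the part of fibre RNA content in these results was not tested. That list holds no member, and shares Bfsp1, Bfsp2, Hsf4 and 2 β-crystallin genes with lists described further on.

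The unscaled signals put array 3 in another place. As deposited, the brighter Cryaa probe read 76429, 74720 and 84311 in knock-in and 111080, 123492 and 93988 in wild type lenses, and the brighter Cryab probe 82119, 86296 and 79030 against 104335, 110258 and 156027. Before scaling all wild type arrays thus lay above all knock-in arrays for both genes, although the 75th percentile of wild type arrays 1 and 2 was below that of every knock-in array. That of wild type array 3, at 698, was above every knock-in array, so its unscaled place also carries its brightness. No spot was flagged as saturated. The largest spot signal was 95040 to 99670 in knock-in lenses. For the wild type it was 141459 in replicate 1, 143058 in replicate 2 and 190397 in replicate 3. Whether the brightest spots responded less to RNA amount than dimmer ones was not tested.

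The dimmer probe of each α-crystallin gene had a narrower spread among the wild type arrays. For Cryaa it lay at 5.62, 5.01 and 4.74 in knock-in and at 5.73, 5.64 and 5.40 in wild type lenses, a difference of -0.47 (SE 0.25, adjusted p = 0.222 in a limma fit of all 21076 probes, 23.6% of which were called). For Cryab it lay at 5.97, 5.59 and 5.47 in knock-in and at 6.0, 6.05 and 5.60 in wild type lenses, a difference of -0.21 (SE 0.21, limma adjusted p = 0.5; 0.15 after quantile normalization). On these probes wild type array 3 lay nearer to the other wild type arrays than on the brighter ones. It was still the lowest wild type array and within the knock-in range for both genes. The groups overlapped on both. Under the scan day block these probes differed by -0.56 and -0.35 and did not pass (limma adjusted p = 0.136 and 0.170), so the falls called on the brighter probes within the scan day were not called on the dimmer ones.

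Within an array the brighter Cryaa probe exceeded the dimmer one by 3.21 to 4.07 on the log2 scale in knock-in lenses, by 3.88 and 4.37 in controls 1 and 2, and by 1.67 in control 3. The corresponding gap for Cryab was 2.97 to 3.25, 3.52 and 3.79, and 2.20. Wild type array 3 had the smallest gap for both genes. The cause was not tested.

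**Figure D2:**
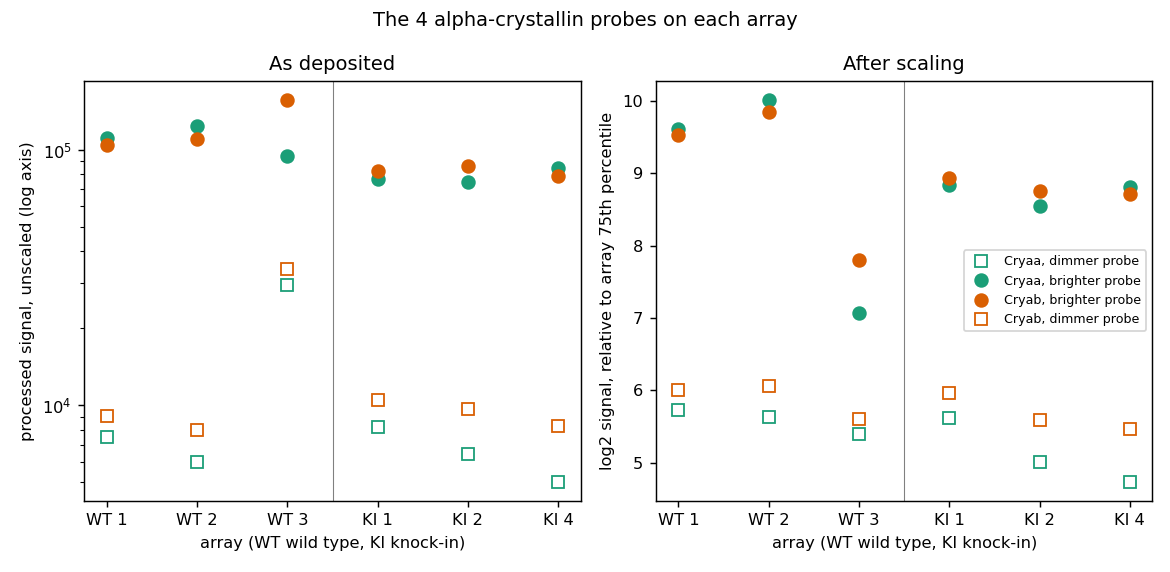
The 4 α-crystallin probes on each array are plotted as deposited (left, signal on a log axis) and after scaling (right, log2 relative to the 75th percentile of the array), with filled circles for the brighter and open squares for the dimmer probe of each gene. The brighter probes of wild type array 3 lie above all knock-in arrays on the left and below all other arrays on the right, while its dimmer probes, highest on the left, lie near those of the other arrays on the right.

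A difference between genes within an array is free of that array's scaling factor, though not of other normalization. Cryab minus Cryaa, both on their brighter probes, was 0.10, 0.21 and -0.09 in knock-in lenses and -0.09, -0.16 and 0.73 in wild type lenses. The means were 0.07 ± 0.15 (SD, n = 3) and 0.16 ± 0.50 (SD, n = 3), and an exact two-sided permutation test gave p = 0.9, where 3 against 3 arrays cannot go below 0.1. The difference between genotypes was -0.09, and -0.44 after quantile normalization (exact permutation p = 0.8). The level of one probe against another has no meaning here, only its change between arrays.

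Hspb1, also called HSP25 in the mouse, protects actin filaments and is made strongly in lens. Its levels were 7.41, 7.74 and 7.55 in knock-in lenses and 9.06, 9.34 and 7.60 in wild type lenses. Array 3 lay within the knock-in range, and the other wild type arrays were more than 1 unit higher. The means of 7.57 ± 0.16 (SD, n = 3) and 8.67 ± 0.94 (SD, n = 3) differed by -1.10 (SE 0.44, limma adjusted p = 0.107; 95% confidence interval from -2.13 to -0.07), which did not pass.

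For Hspb1 all 16 alternative settings kept the negative sign, and 6 of them passed. It fell by 0.66 after quantile normalization (limma adjusted p = 0.0358), by 1.14 with arrays centred on their median (adjusted p = 0.0166), by 1.30 with normexp background correction (adjusted p = 0.0421), and by 1.63 under the scan day block (adjusted p = 0.00103) or without wild type array 3 (adjusted p = 0.00117). Under the random slide block the difference was -0.93 (adjusted p = 0.401). Before scaling the signals were 28464, 42875 and 35272 in knock-in and 75868, 77776 and 135344 in wild type lenses, again with no overlap. Unscaled signals carry the brightness of each array. The 75th percentile was 698 on wild type array 3, against 167 to 201 on the knock-in arrays.

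Hspb8, known as HSP22, works with Bag3 to hand misfolded proteins to autophagy. It lay at 0.48, 0.11 and 0.26 in knock-in lenses and at -2.82, -2.94 and -2.16 in wild type lenses. Every knock-in array was more than 2 units above every wild type array, and the probe was well above background on all 6. The deposited signals were 234, 216 and 226 against 20.1, 15.7 and 157, so that wild type array 3 was below the knock-in arrays even before its higher brightness was scaled away. Hspb8 rose by 2.92 on the log2 scale (SE 0.24, limma adjusted p = 0.000478; 95% confidence interval from 2.35 to 3.50), from a mean of -2.64 ± 0.42 (SD, n = 3) to 0.28 ± 0.19 (SD, n = 3).

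The rise of Hspb8 passed in all 16 alternatives. It was 3.16 under the scan day block (limma adjusted p = 0.000142), 2.85 under the random slide block (adjusted p = 0.00687) and 2.77 to 3.16 when single arrays were left out. Normexp background correction, whose offset pulls dim probes towards a common floor, gave 1.65 (adjusted p = 0.00352). Without knock-in array 4, the one with the highest photoreceptor signal, it was 2.93 (adjusted p = 0.00348). The remaining knock-in arrays also had more photoreceptor signal than any wild type array (7.61 and 10.1 against 3.46 to 4.11). The part of photoreceptor RNA in the rise was not tested.

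Bag3, the co-chaperone that binds Hspb8 and HSP70, had levels of 0.83, 1.16 and 1.16 in knock-in and 1.26, 1.15 and 1.58 in wild type lenses. The groups overlapped. The difference of -0.29 (SE 0.19, limma adjusted p = 0.297; 95% confidence interval from -0.73 to 0.15) did not pass, nor did it in any of the 16 alternatives, where it ranged from -0.38 to -0.16. The interval lies well below the change of Hspb8.

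Among the members best known from muscle, Hspb3 fell the most. Hspb3 pairs with Hspb2 in a complex of muscle cells. Its levels were -1.71, -1.79 and -1.94 in knock-in lenses and -0.20, -0.27 and 0.07 in wild type lenses. The 2 groups were separated by over 1 unit, and wild type array 3 lay beside the other wild type arrays. Hspb3 fell by 1.68 on the log2 scale (SE 0.17, limma adjusted p = 0.00086; 95% confidence interval from -2.07 to -1.28), from -0.14 ± 0.18 (SD, n = 3) to -1.81 ± 0.12 (SD, n = 3). It passed in all 16 alternatives, at -1.57 under the scan day block (adjusted p = 0.000704), -1.71 under the random slide block (adjusted p = 0.0155) and -1.14 with normexp (adjusted p = 0.00769).

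Hspb2, a partner of the myotonic dystrophy protein kinase, lay at 2.67, 2.91 and 2.74 in knock-in and at 3.37, 3.44 and 3.81 in wild type lenses. The groups did not overlap, with a gap smaller than that of Hspb3. Hspb2 fell by 0.77 (SE 0.18, limma adjusted p = 0.0218; 95% confidence interval from -1.19 to -0.34). The call held under the scan day block (-0.63, adjusted p = 0.0126) but was lost under the random slide block (-0.81, adjusted p = 0.163), with median centring (adjusted p = 0.0663), with normexp (-0.51, adjusted p = 0.247), without the filter on dim probes (adjusted p = 0.0722), and on leaving out knock-in array 1, 2 or 4 or wild type array 1 or 2 (adjusted p from 0.0566 to 0.0657).

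The neighbours Hspb2 and Cryab were also set against each other within arrays. Hspb2 minus Cryab was -6.27, -5.84 and -5.98 in knock-in lenses and -6.15, -6.41 and -3.99 in wild type lenses. The means of -6.03 ± 0.22 (SD, n = 3) and -5.52 ± 1.33 (SD, n = 3) did not differ beyond the spread (exact two-sided permutation p = 0.9). The difference of -0.51 turned to 0.25 without wild type array 3, and was -0.82 after quantile normalization, where the groups did not overlap (exact permutation p = 0.1, the smallest 3 against 3 arrays can give).

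Hspb6, or HSP20, a small heat shock protein of smooth and striated muscle, lay at 2.09, 1.91 and 1.77 in knock-in and at 2.66, 2.59 and 1.09 in wild type lenses. Wild type array 3 was lowest and the groups overlapped, as for the α-crystallins. The difference was -0.19 (SE 0.41, limma adjusted p = 0.771; 95% confidence interval from -1.17 to 0.79), turning to 0.11 with normexp and to 0.09 or 0.05 without wild type array 1 or 2. Under the scan day block Hspb6 fell by 0.70 (adjusted p = 0.0119), and without wild type array 3 it fell by the same amount (adjusted p = 0.0125). Hspb7, the cardiovascular member, had 10 spots and levels from -6.64 to -4.66, all not well above background.

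Muscle markers were read beside Hspb2 and Hspb3. Summed signal of the 13 striated muscle markers was 1.44 to 2.52 times the 75th percentile in knock-in and 3.32 to 4.06 in wild type lenses, and 6 of them, the myosin heavy chain genes Myh1, Myh2 and Myh4 with Actn2, Mb and Ttn, were not well above background on any array. Acta1, skeletal muscle actin, was the largest term of the sum on every array and the only marker of the list well above background on all 6; it differed by -1.29 (limma adjusted p = 0.021). Tnnc2 and Ckm entered the fit only through the wild type arrays, where they were higher, so their calls are not read further. Tnni2 lay at -2.81, -3.57 and -2.45 in knock-in and at -3.29, -3.09 and -4.20 in wild type lenses, which overlapped. The 9 smooth muscle markers summed to 31.3 to 58.6 and 95 to 162, with Myh11, Actg2, Cnn1 and Lmod1 not well above background anywhere. Of the 5 tested, Tagln and Myl9 rose and Acta2 and Smtn fell. Under the random slide block none of these striated or smooth muscle calls remained. The part of muscle RNA in the falls of Hspb2 and Hspb3 was not tested.

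The calls of Cryaa, Cryab, Hspb1 and Hspb6 depended on wild type array 3. Under the scan day block 7 of 8 members were called, 6 lower and Hspb8 higher, where 43.5% of all genes were called, 19.5% higher and 23.9% lower. Leaving out wild type array 3 also gave 7, with 43.2% of all genes called, 18.9% higher and 24.3% lower. Under the random slide block Hspb8 and Hspb3 were called, 2 of 8 members against 4.83% of all genes (2.82% higher and 2.01% lower). Quantile normalization called 4 of 8 with Hspb1 added, against 27.6%.

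**Figure D3:**
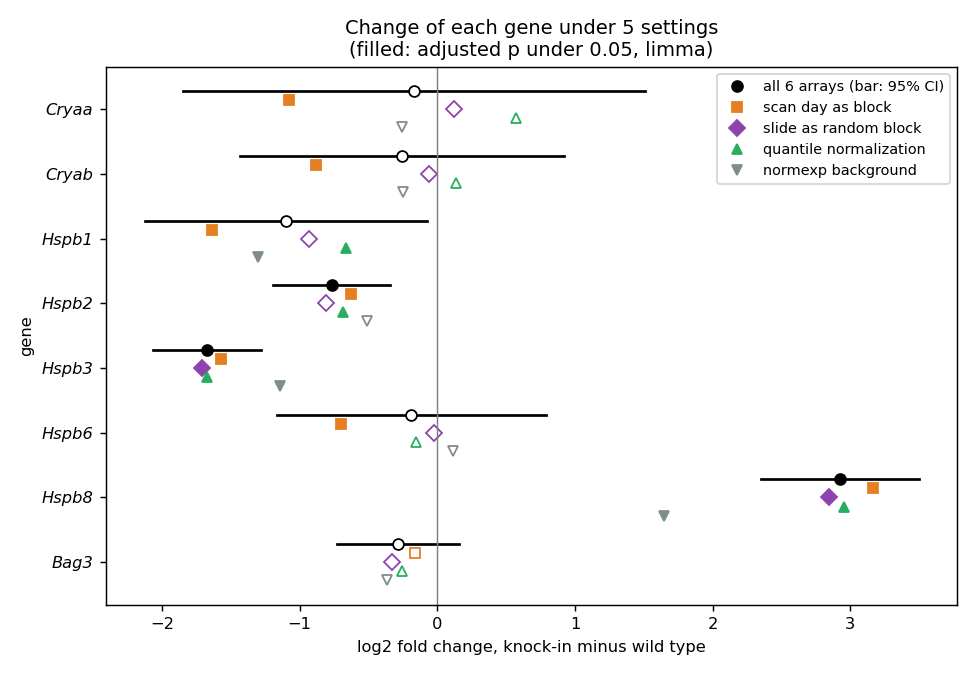
The log2 fold change of each tested member, knock-in minus wild type, is plotted for the fit of all 6 arrays with its 95% confidence interval and for 4 alternative settings; a filled marker has a limma adjusted p under 0.05. Hspb8 and Hspb3 keep their side of 0 and their filled markers throughout, while Cryaa spans from -1.08 to 0.57.

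Heat shock factors bind inverted repeats of GAA, and the start regions of the members were searched for the paired unit GAANNTTC, which reads the same on both strands. RefSeq start regions on GRCm38.p6 were matched by symbol for 7 of the 9 genes. In windows of 250 bases before to 50 after the start, 5 of these 7 genes held the unit (Hspb1, Hspb3, Hspb6 at 1 of its 2 start sites, Hspb8 and Bag3). Counted by window it was in 5 of 8, and in 7.86% of all 32851 windows. The unit in the other order, TTCNNGAA, was in none of the members' windows and in 8.52% of all. Cryaa and Hspb7 held neither in this window. Each unit was also searched in a longer form, extended by a further repeat. Neither longer form was in any of the members' windows, and each was in 0.603% of all. The regions of the 2 members that changed most in opposite directions and of Hspb1, the only one with 2 copies, are shown from 250 bases before to 30 after the start, 5′ to 3′ along the gene, with GAANNTTC in capitals. They lie at chr5:116422835-116423114 (minus strand) for Hspb8, chr13:113663647-113663926 (minus strand) for Hspb3 and chr5:135887669-135887948 (plus strand) for Hspb1.
Hspb8: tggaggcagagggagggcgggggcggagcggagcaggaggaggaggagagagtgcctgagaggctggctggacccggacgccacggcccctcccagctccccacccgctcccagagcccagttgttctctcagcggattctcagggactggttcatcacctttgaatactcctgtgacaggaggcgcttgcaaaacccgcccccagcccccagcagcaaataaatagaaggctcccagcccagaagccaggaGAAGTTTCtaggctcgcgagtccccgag
Hspb3: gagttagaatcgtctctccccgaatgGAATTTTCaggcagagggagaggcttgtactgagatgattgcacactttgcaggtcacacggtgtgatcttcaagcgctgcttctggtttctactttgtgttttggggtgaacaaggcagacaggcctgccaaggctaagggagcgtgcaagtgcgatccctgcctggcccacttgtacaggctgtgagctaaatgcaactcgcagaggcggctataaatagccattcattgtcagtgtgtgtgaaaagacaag
Hspb1: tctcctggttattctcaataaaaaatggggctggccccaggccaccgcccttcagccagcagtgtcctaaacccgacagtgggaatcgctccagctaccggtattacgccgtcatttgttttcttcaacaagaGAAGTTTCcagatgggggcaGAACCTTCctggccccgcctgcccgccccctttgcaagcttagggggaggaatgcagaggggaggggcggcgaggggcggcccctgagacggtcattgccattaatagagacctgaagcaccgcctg
Counting the first transcribed base as 0, the unit begins in Hspb8 2 bases past the start, in Hspb3 224 bases before it, and in Hspb1 117 and 97 bases before it. Hspb8 rose and Hspb3 fell with 1 unit each, and Bag3, with 1 unit 42 bases past its start, did not pass, so holding the unit did not sort the members by direction. A match is a description of the letters and not evidence of binding.

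The genes around the family were taken from lists of the heat shock response, of BAG proteins and the partners of Bag3 in chaperone-assisted selective autophagy (CASA), and of intermediate filaments, which small heat shock proteins bind. Of 25 tested genes of the heat shock response, 4 rose, 6 fell and 15 did not pass, with a median of -0.03 (0.11 under the scan day block), beside 13.3% of all genes higher and 12.6% lower. Hsph1, the HSP110 exchange factor of HSP70, rose by 1.15 (SE 0.18, limma adjusted p = 0.0047). Falls were 0.83 for Stip1, the adaptor of HSP70 and HSP90, 0.77 for Ahsa1, an activator of HSP90, and 1.1 for Hspe1, the mitochondrial co-chaperonin (limma adjusted p from 0.00924 to 0.0120). Hsf4, the heat shock factor of lens and no part of the naming rule (it was picked with its value in view), fell by 0.81 (SE 0.19, limma adjusted p = 0.0231), at 0.50, 0.04 and -0.09 in knock-in and 0.96, 0.91 and 1.02 in wild type lenses.

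Under the random slide block all of the list's calls were lost, and Hsph1 had an adjusted p of 0.0726 and Hsf4 of 0.244. The call of Stip1 was lost without knock-in array 2 (adjusted p = 0.0533), that of Hspe1 without knock-in array 2 or wild type array 1 (0.0539 and 0.0542), and that of Ahsa1 without knock-in array 2 or wild type array 1 or 2 (0.0582 to 0.0618). That of Hsf4 was lost without knock-in array 2 or 4 or wild type array 1 or 2 (0.0678 to 0.102) and without the filter on dim probes (0.0726).

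In the list of other BAG genes and CASA genes, 4 of 16 tested genes rose and 12 did not pass. Of all genes, 13.3% were higher and 25.9% were called in either direction. The list's median was -0.08 (0.14 under the scan day block). Under that block 5 of its genes rose and 2 fell, beside 19.5% of all genes higher and 23.9% lower. Those that fell, named after their values were seen, were Synpo (-0.55, limma adjusted p = 0.0353) and Synpo2. Synpo2 entered the fit only through the wild type arrays. Flnc, filamin C, a client of the Bag3 complex, rose by 2.62 (SE 0.21, limma adjusted p = 0.000403), Map1lc3a, a membrane protein of autophagosomes, by 2.00 (SE 0.20, adjusted p = 0.000904) and Sqstm1, the autophagy receptor p62, by 1.96 (SE 0.20, adjusted p = 0.000966). These 3 genes kept their calls under the random slide block (adjusted p from 0.00883 to 0.0247), which cannot separate slide from genotype. Flna, filamin A, rose by 0.65, and its call was lost under the random slide block, with median centring, with normexp, without the filter on dim probes, and without knock-in array 2 or wild type array 1 or 2 (adjusted p from 0.0669 to 0.18). The BAG genes Bag1, Bag2, Bag4, Bag5 and Bag6, named after their values were seen, differed by -0.29 to 0.28 and did not pass.

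Of 6 intermediate filament genes tested, 2 were called higher. Gfap, the filament of glia, lay at 0.42, 0.26 and -0.06 in knock-in and at -2.78, -3.36 and -3.51 in wild type lenses. It was well above background on 2 of 3 wild type arrays and entered the fit only through the knock-in group, so its call is not read further. Lmna, which encodes nuclear lamins A and C, rose by 1.14 (adjusted p = 0.0159), a call lost under the random slide block, with normexp and on leaving out any array but wild type 3 (adjusted p from 0.0513 to 0.132). The beaded filament gene Bfsp2 and Vim, vimentin, differed by -0.87 and -0.43 and did not pass, but fell by 1.22 and 0.71 under the scan day block (adjusted p = 0.00107 and 0.00746). The list's median was -0.03, and 0.16 after quantile normalization.

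Of the other genes with small heat shock protein names, Hspb11, a subunit of intraflagellar transport, fell by 0.86 (SE 0.17, limma adjusted p = 0.0117), a call lost with normexp (0.108), under the random slide block (0.121) and without knock-in array 2 (0.0523). Hspb9, a testis member, differed by -0.76 (adjusted p = 0.0571; 0.00291 under the scan day block), with levels of -2.27 to -2.17 in knock-in and -1.96 to -1.09 in wild type lenses. Odf1, of the sperm tail, was not well above background on any array.

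**Figure D4:**
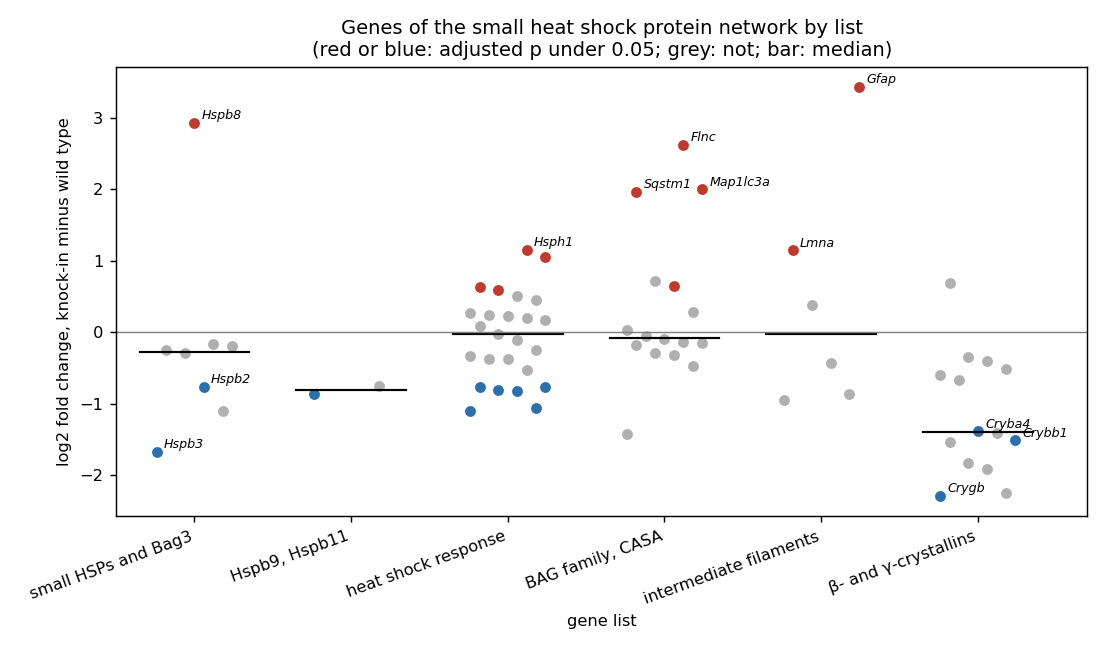
Points give the log2 fold change of every tested gene, knock-in minus wild type, in the members and the 5 lists set beside them; coloured points have a limma adjusted p under 0.05 and the bar is the list's median. Hspb8 lies at 2.92 and Flnc, Map1lc3a and Sqstm1 at 2.62, 2.00 and 1.96, while the medians of the heat shock response and CASA lists lie near 0.

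The β- and γ-crystallins, the other structural proteins of the lens, differed by a median of -1.40 over 14 genes, 3 of which fell and 11 did not pass, beside 12.6% of all genes lower. Under the scan day block the median was -1.77 with 13 of 14 lower, where 23.9% of all genes were lower, beside -0.79 for the 8 tested members. Crybb1 fell by 1.51 (adjusted p = 0.003), Crygb fell by 2.29 (adjusted p = 0.0103; 0.0749 under the random slide block), and Cryba4, at -1.38 (adjusted p = 0.0412), lost its call without any single array but wild type 3 (adjusted p from 0.0876 to 0.123), without the filter on dim probes (0.094) and under the random slide block (0.243). Cryge, at -1.91, did not pass (adjusted p = 0.0518; 0.000177 under the scan day block). The difference between the crystallin families was not tested.

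The profiles over the 6 arrays that lay closest to those of the abundant members, by root mean square difference after each gene's mean was subtracted, came from genes outside the family. Among 10663 genes they were Olfr1109, Iqck and Psd4 for Cryaa (0.159 to 0.202 on the log2 scale), Olfr1384, Mlkl and Clps for Cryab (0.054 to 0.080), and Sh2d2a, Lasp1 and Olfr312 for Hspb1 (0.084 to 0.158). For each of the 9 genes the profile includes wild type array 3, which stood apart for Cryaa, Cryab and Hspb1.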

How the data were processed

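Lens RNA of 3 knock-in and 3 wild type samples was hybridised to single-colour Agilent arrays. The deposited intensity values are spot signals from Agilent Feature Extraction, version 11.0.1.1 per the file headers and 9.1 per the submitters' processing notes. The processed signal is background-corrected per the file headers, whose design build is mm9.

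From 43020 non-control spots per array, outlier-flagged spots were dropped, signals divided by the array's 75th percentile and log2-transformed, and spots of a probe averaged. Of 39429 probes, 27234 were named through RefSeq accessions (20659 symbols). Probes well above background on all arrays of a group were kept (21076), and the brightest probe represented a gene (12785 genes). limma 3.58.1 (R 4.3.3) was fitted to all genes, leaving 4 residual degrees of freedom, and p-values were Benjamini-Hochberg adjusted (threshold 0.05). Within-array ratios were tested by exact two-sided permutation. The number of arrays limits the precision.

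The 16 alternatives were quantile normalization, median centring, normexp (offset 50, run on median signals), no filter, a filter on all 6 arrays, keeping flagged spots, averaging probes, scan day, slide (random block, correlation 0.56) and replicate blocks, and leaving out each array. Marker sums used each gene's brightest probe. The members and lists were chosen with earlier results of these data known. Named were all members, the other small heat shock protein genes, up to 4 genes with the smallest p of each further list, and the 3 closest profiles for Cryaa, Cryab and Hspb1. The fit was tested on simulated data.

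The labels share replicate numbers 1 and 2 between genotypes without saying what they mark. Deviations of same-numbered arrays from their group means correlated at 0.17 for number 1 and -0.21 for number 2. Differently numbered pairs gave 0.21 (knock-in 1 with wild type 2) and -0.18 (knock-in 2 with wild type 1). So few arrays cannot settle what the numbers mark, and the arrays were not treated as paired.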

Additional observations from a re-analysis of the deposited data

How the results depend on the processing

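Hspb8 and Hspb3 kept direction and call in all 16 alternatives, none of which separates slide from genotype. Genes called numbered 3312, and 1433 with normexp, 2003 without the filter on dim probes, 5556 with the scan day as a block, 618 with slide as a random block and 1531 to 5650 when single arrays were left out. Probes called numbered 4969, and 1914, 2068, 9248, 669 and 1934 to 9490 in the same order. Members called were 3, with 7 under the scan day block and 2 to 7 when single arrays were left out. Of the genes in the lists beside the members 20 were called, and 13 without the filter, 41 with the scan day block, 5 with the slide block and 7 to 40 when single arrays were left out. With the replicate number as a block, whose meaning the labels do not give, the calls were 5433 genes, 9367 probes, 7 members and 42 list genes.

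Direction turned for Cryaa (0.57 with quantile normalization, 0.12 with the slide block, -1.08 to 0.39 when single arrays were left out), Cryab (0.14 and -0.88 to 0.14, quantile normalization and single arrays) and Hspb6 (0.11 with normexp, -0.70 to 0.085 with single arrays left out). Cryab minus Cryaa, at -0.09, was -0.44 with quantile normalization, 0.0045 with normexp, 0.084 with averaged probes and -0.25 to 0.20 when single arrays were left out, and Hspb2 minus Cryab was -0.82 with quantile normalization and -0.96 to 0.25 when single arrays were left out. The cause was not tested. Signal over background limits Hspb7, which has no measured difference.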
